A study of Mus musculus with 2 samples.

Results

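The Fox and Sox genes encode 2 families of transcription factors, and 60 of them were followed here through a list of ac4C peaks from the mouse uterus. The members were the protein-coding genes of the RefSeq GRCm38.p6 gene table whose symbols name a Fox gene of subfamilies a to s (42 genes) or a numbered Sox gene (18 genes), out of 21900 protein-coding genes. Foxa2, Foxo1 and Sox17 belong to the same families but were not among the members; in the list they held 1, 4 and 1 peaks, the highest at a fold enrichment of 10.2, 12.8 and 14.4. Of the 60 genes, 23 held at least 1 peak (38.3%) and 37 held none, while 30.7% of all protein-coding genes held one.

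The data came from 2 libraries of polyA RNA of mouse uterus, taken whole from wild-type animals at gestational day 4. One was an immunoprecipitation with an antibody to N4-acetylcytidine (ac4C, a cytidine that carries an acetyl group), and the other was the input control. Strain, age and the number of animals were not given in the sources used here. As there was 1 library of each kind, no value has a replicate check and no test was made. A peak is a stretch in which the authors' peak caller found more immunoprecipitated fragments than background, and its summit is the highest point. Fold enrichment is the value that the authors' caller gave. It equals summit fragments plus 1, divided by background plus 1, so it lies below the plain ratio, most where background is low. The sources used here do not say if the caller drew its background from the input or from the immunoprecipitated library, so neither fold enrichment nor background is read as a measure of the input. A peak was given to a gene when its summit lay anywhere in the gene span, introns included, so exons were not told from introns. The range in parentheses after a value is its 95% interval, computed as an exact Poisson interval from the fragments at that summit. It covers counting error of the immunoprecipitation alone and leaves out that the highest of several peaks was taken.

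Fox proteins bind DNA through the forkhead domain, a winged-helix fold, and Sox proteins through the HMG box, which lies in the minor groove and bends the helix. Members of both families set and keep cell identity, and many are restricted to particular lineages such as epithelium, mesenchyme, endothelium, glia or germ cells. In the uterus, factors of both families are known for parts in gland formation and in the response to steroid hormones. In mRNA, ac4C is placed by the acetyltransferase Nat10 and has been linked to mRNA stability and translation.

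Transcription starts lay under a peak in 2 members, among the 39 with a start in the RefSeq promoter table. These were Foxj2, a forkhead activator, and Foxl2, the forkhead factor of ovarian granulosa cells that is also found in uterine mesenchyme. Their sequences are shown because the peak covers the listed start. Both run 5′ to 3′ on the + strand of GRCm38.p6, the strand of the mRNA. Most of each lies before the listed start, and only the last 30 bases are in the transcript as listed. The Foxj2 sequence, at chr6:122820059-122820213, begins where the peak begins, 125 bases before the start. The Foxl2 sequence, at chr9:98955357-98955636, begins 250 bases before the start and lies wholly within the peak. Capitals mark matches to CNNCNNCNNCNN, in which 4 cytidines lie 3 bases apart, a spacing that has been described for ac4C. The + strand alone was searched, and matches may overlap.
Foxj2: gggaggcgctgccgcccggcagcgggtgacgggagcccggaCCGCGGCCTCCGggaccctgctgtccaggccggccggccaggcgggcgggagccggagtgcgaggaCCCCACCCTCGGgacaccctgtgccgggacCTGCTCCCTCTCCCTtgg
Foxl2: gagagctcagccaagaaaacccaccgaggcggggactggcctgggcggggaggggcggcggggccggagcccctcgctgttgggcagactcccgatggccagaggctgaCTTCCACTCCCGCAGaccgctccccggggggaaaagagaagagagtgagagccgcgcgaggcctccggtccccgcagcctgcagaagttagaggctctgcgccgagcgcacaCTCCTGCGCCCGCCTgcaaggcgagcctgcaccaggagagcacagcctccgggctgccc

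The Foxj2 stretch of 155 bases held 61 cytidines (39.4%), and the Foxl2 stretch of 280 bases held 97 (34.6%). In the same windows of all 17492 protein-coding genes with a listed start, the median cytidine content was 27.7% and 27.1%. The G+C content of the 2 stretches was 79.4% and 71.1%. Both summits lay beyond the stretches, 254 and 342 bp after the start. Each stretch held 4 matches to the repeat. In Foxj2, 2 of them lay in the transcript and 2 before its start, while in Foxl2 all 4 lay before the start and 0 in the transcript. Such matches were common: 58.2% of the windows of 155 bases and 71.5% of those of 280 bases held at least 1, and 21.1% and 34.1% held 4 or more. A match describes the letters and not a modified site.

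Across the members, peaks were counted by subfamily. The subfamilies have 1 to 4 members, and no like count was made for other gene groups of that size. Full and empty subfamilies are therefore not read as a result about the subfamily. Counting members alone, 10 of 19 Fox subfamilies held a peak, and 4 of 8 Sox groups did. In all, 15 of 42 Fox genes (35.7%) and 8 of 18 Sox genes (44.4%) held a peak, together 23 of 60 (38.3%). Among all protein-coding genes the share was 30.7%. Every member of subfamily Foxk, of Sox group D and of Sox group F held a peak, as did Foxm1 and Foxs1, the only genes of their subfamilies. The subfamilies with no peak in any member included Foxa, Foxb, Foxd, Foxe, Foxh, Foxi, Foxq and Foxr, and Sox groups B1, B2, G and H. Foxa stands there only because Foxa2, which held 1 peak, was not a member. The members held 95 peaks, 74 in Fox genes and 21 in Sox genes, and Foxp (22), Foxk (19) and Sox group D (12) held most of them. The genes with a peak in Foxp, Foxk and Sox group D had long spans, from 42.2 kb (Sox13) to 954 kb (Sox5).

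Gene span went with the presence of a peak. The median span was 25.2 kb for members with a peak and 3.80 kb for those without one, against 26.5 kb and 14.2 kb among all protein-coding genes. Below 5 kb, 7 of 31 members (22.6%) held a peak, against 15.7% of all genes of that span. Between 5 and 20 kb, 4 of 12 members (33.3%) did, against 30%. Between 20 and 100 kb, 8 of 12 members (66.7%) held a peak, against 35.2%, and at 100 kb or more 4 of 5 members (80%) did, against 49.3%. The member shares lay above the background in each class, by the least between 5 and 20 kb. The classes hold 5 to 31 members, and transcript abundance was not matched.

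**Figure D1:**
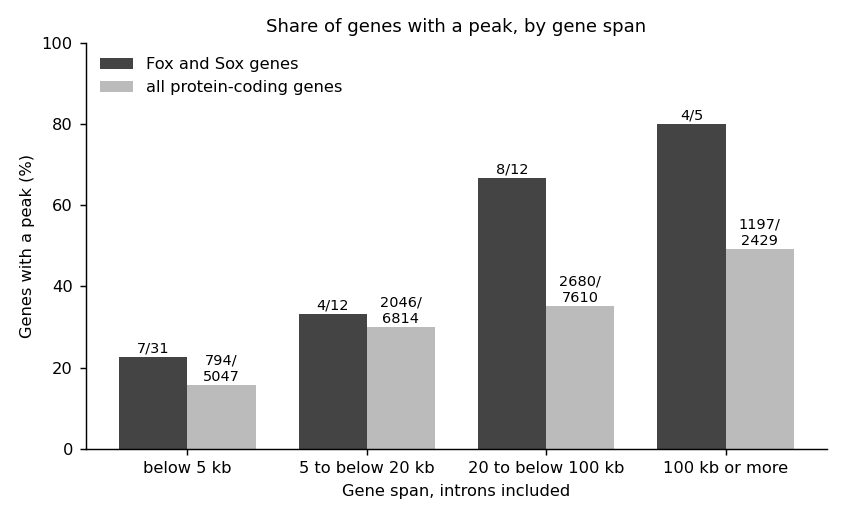
Percentage of genes with a peak by gene span for the Fox and Sox genes (dark) and all protein-coding genes (grey), with the numbers of genes above the bars. The member share runs from 22.6% below 5 kb to 80% at 100 kb or more, and that of all genes from 15.7% to 49.3%.

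Enrichment at the highest peak had a median of 8.66 over the 23 members (quartiles 6.19 and 14.4, range 3.15 to 19.9), against a median of 6.61 over all protein-coding genes with a peak. Without peaks wider than 631 bp, 2 times the median width of the list, these medians were 6.83 and 6.25. At least 10-fold enrichment was reached by 10 of the 60 members, 6 Fox and 4 Sox genes, and by 5.84% of all protein-coding genes. These 10 were Foxk1, Foxj2, Foxl2, Foxp4, Foxo3, Sox12, Sox9, Sox4, Sox18 and Foxc1, from 19.9 down to 10.6. Their intervals all overlapped each other, so their order was not resolved. The intervals of the 13 other members with a peak lay below the lower bound of Foxk1, at 14.6. Of the 10, 6 had their highest enrichment in a peak beyond that width. Where wider peaks were left out, Foxl2, Sox12, Sox18 and Sox7 held no peak, and Sox4 stood at 2.62 and Foxo3 at 3.20.

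**Figure D2:**
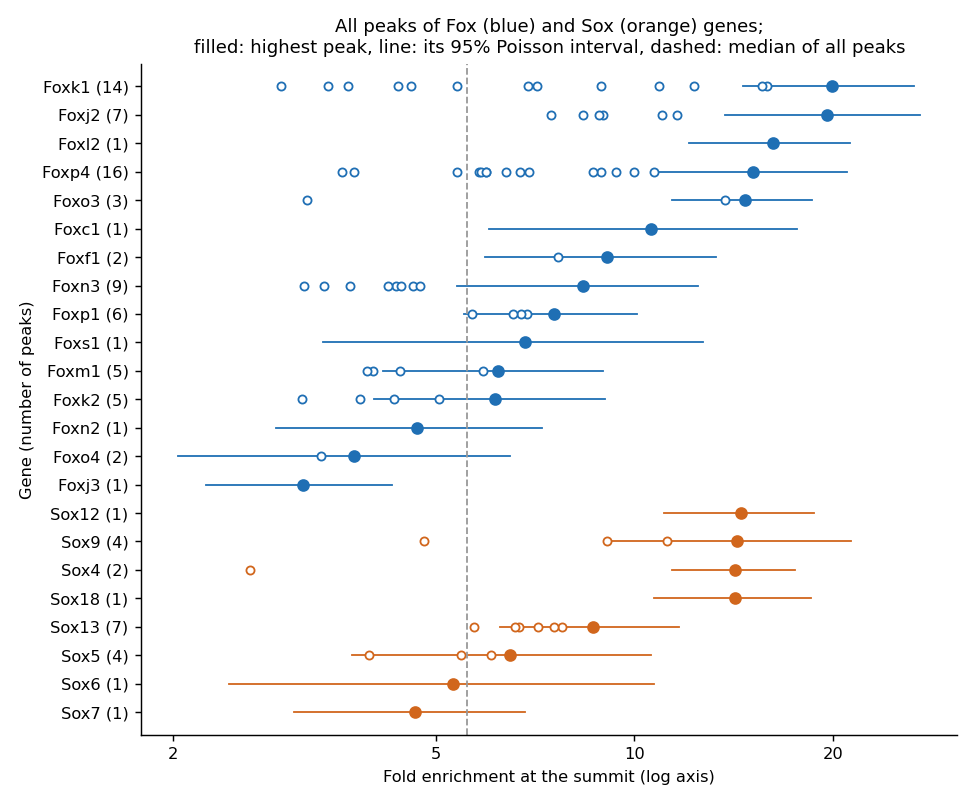
Fold enrichment of all 95 peaks (log axis) in the 23 Fox (blue) and Sox (orange) genes with a peak, with the highest peak filled and its 95% Poisson interval drawn as a line. The dashed line is the median of the whole list, 5.58; the highest peaks of Sox6, Sox7, Foxn2, Foxo4 and Foxj3 lie to its left.

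The paralogs Foxk1 and Foxk2, which act on genes of metabolism and autophagy, both held several peaks but differed in height. Foxk1 (NCBI gene 17425, chromosome 5, 142401497 to 142462015) held 14 peaks from 2.92 to 19.9. Its highest, from 142434967 to 142435393, stood at 19.9 (95% interval 14.6 to 26.5) on 45 fragments over a background of 1.31. Another, at 15.9 (10.2 to 23.7) on 22 fragments, had its summit 412 bp inside the lower-coordinate end of the span, and 1 at 15.6 (11.4 to 21.0) lay 8.21 kb from the other end. Foxk2 (NCBI gene 68837, chromosome 11) held 5 peaks from 3.14 to 6.15, and its highest (4.03 to 9.03), on 24 fragments, lay 3.13 kb before the end of the gene. The intervals of the highest peaks did not overlap.

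Among the Foxp genes, repressors that pair through a leucine zipper, Foxp4 and Foxp1 held peaks while Foxp2 and Foxp3 did not. Foxp4 (NCBI gene 74123, chromosome 17, 47867133 to 47924632) held 16 peaks, the most of any member. The highest stood at 15.1 (10.6 to 21.0) on 34 fragments, 2.10 kb before the end of the gene, and the others ran from 3.61 to 10.7. Of the 16 summits, 12 lay within 14 kb of that end, and 1 lay 236 bp after the start. Foxp1 (NCBI gene 108655, chromosome 6, 98925342 to 99522746), which acts in lymphocyte development, has a span of 597 kb. Its 6 peaks lay at 5.67 to 7.57, with the 2 nearest the start at 1.12 and 2.30 kb from it and the other 4 in the last 78.1 kb. The highest stood at 7.57 (5.52 to 10.1) on 43 fragments, and its interval lay below that of Foxp4. Foxp2, a gene of 541 kb, was 1866 kb from the nearest peak. Foxp3, the factor of regulatory T cells, held none, and a peak in Ccdc22 lay 4155 bp away.

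Foxj2 (NCBI gene 60611, chromosome 6, 122820184 to 122845366) held 7 peaks of 7.48 to 19.6, all above the list median. The highest, whose first bases are printed above, stood at 19.6 (13.7 to 27.1) on 34 fragments over a background of 0.788, with its summit 254 bp after the start. The next, at 11.6 and 11.0, lay 13.5 and 17.6 kb after the start of this 25.2-kb gene, and the last summit was 2.55 kb before its end. Foxj3, its close relative, held 1 peak at 3.15 (2.25 to 4.29), the lowest of the members' highest peaks, although it rested on 38 fragments: the background there was 11.4. Foxj1, which drives the genes of motile cilia, held none, and the nearest peak, in Rnf157, lay 1196 bp away.

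FoxO proteins turn on genes of stress resistance and arrest and are held in the cytoplasm once Akt phosphorylates them. Foxo3 (NCBI gene 56484, chromosome 10, 42181845 to 42276695) held 3 peaks. The highest, from 42196753 to 42198081, stood at 14.7 (11.4 to 18.6) on 65 fragments, 15.1 kb before the end of the gene. Another at 13.7 (9.53 to 19.2) lay 1.44 kb after the start, and the last, 4.24 kb before the end, stood at 3.20 (2.13 to 4.63). The first 2 were broad, at 1329 and 820 bp. Foxo4, on chromosome X, held 2 peaks at 3.36 (2.11 to 5.10) and 3.76 (2.04 to 6.49), and both intervals lay below that of the highest peak of Foxo3. Foxo6 held none.

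Foxl2 (NCBI gene 26927, chromosome 9, 98955607 to 98958126) is a short gene that was mostly covered by a single peak. The peak was 2500 bp wide, the widest of the members, and stood at 16.2 (12.1 to 21.2) on 50 fragments over a background of 2.15. It covered 73.7% of the gene, and its summit lay 342 bp after the start. It also reached 643 bp upstream, over the nearest 347 bp of Foxl2os, a long non-coding RNA gene whose span ends 296 bp before Foxl2 in the table. The list gives no strand, so fragments of the 2 genes cannot be told apart in the upstream part. Foxl1 held no peak.

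Other Fox genes of the mesenchyme were mixed. Foxc1 (NCBI gene 17300, chromosome 13), which acts in mesenchyme and vessels, held 1 peak at 10.6 (6.02 to 17.6), on 13 fragments at the lowest background of the list, 0.317. Foxf1 (NCBI gene 15227, chromosome 8), a target of hedgehog signals in mesenchyme, held 2 peaks, at 9.09 (5.95 to 13.3) and 7.65 (4.03 to 13.5). Foxs1 held 1, at 6.83 (3.38 to 12.7) on 8 fragments, again at the lowest background. Foxf1 and Foxc1 lie in clusters whose other members held none. Foxf1 is followed after 28 kb by Foxc2 and then, after a further 8.79 kb, by Foxl1. On chromosome 13, Foxq1, Foxf2 and Foxc1 lie 64.8 and 175 kb apart, and only Foxc1 held a peak.

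Foxm1 (NCBI gene 14235, chromosome 6, 128362994 to 128375886), which drives mitotic genes in dividing cells, held 5 peaks of 3.94 to 6.22. The highest, at 6.22 (4.17 to 8.95), rested on 27 fragments, and the other 4 on 11 to 15. The 5 intervals overlapped. The summit nearest the upper end, at 3.94, also lay in the span of the protein-coding gene Tex52. Foxn3 (NCBI gene 71375, chromosome 12), a repressor tied to cell cycle checkpoints, held 9 peaks over 374 kb. They ran from 3.16 to 8.36 (5.38 to 12.5 for the highest), and the summits lay 175 to 373 kb after the start, so the first part of the gene held none. The summit at 4.73 also lay in the long non-coding RNA gene Gm46371. Foxn2 held 1 peak at 4.68 (2.87 to 7.25), while Foxn1, the thymic epithelial factor, and Foxn4 held none.

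Group C factors act in progenitor cells, and Sox4 and Sox12 each held a wide peak. Sox4 (NCBI gene 20677, chromosome 13, 28948919 to 28953699) stood at 14.2 (11.4 to 17.5) at a peak of 1935 bp, on 84 fragments, the most at any summit of a member. A second peak stood at 2.62 (1.85 to 3.60), the lowest of the 95, on 36 fragments over a background of 13.1. Their summits lay 1.63 and 2.85 kb after the start, and their intervals did not overlap. Both also lay in the span of the long non-coding RNA gene Gm46405, from which they cannot be told apart without strand. Sox12 (NCBI gene 20667, chromosome 2, 152393611 to 152398046) held 1 peak of 2368 bp at 14.5 (11.1 to 18.7) on 58 fragments, covering 53.4% of the gene. Sox11 held none.

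Sox9 (NCBI gene 20682, chromosome 11, 112782210 to 112787757), the factor of cartilage, testis and many epithelial progenitors, was the only member of group E with a peak. Its 4 peaks stood at 9.08 (5.71 to 13.8), 4.80 (2.37 to 8.94), 11.2 (6.96 to 17.2) and 14.3 (9.17 to 21.3), in order of position. They rested on 8 to 22 fragments, and the interval of the lowest lay below that of the highest. Sox8 and Sox10, the latter a factor of Schwann cells and neural crest, held none.

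Group F factors act in endothelium. Sox18 (NCBI gene 20672, chromosome 2, 181669837 to 181671640) held 1 peak of 1454 bp that covered 80.6% of the gene, the largest share of any member with a span below 20 kb. It stood at 14.2 (10.7 to 18.5) on 53 fragments over a background of 2.80. Sox7 (NCBI gene 20680, chromosome 14) also held 1 wide peak, of 1391 bp, but at 4.65 (3.05 to 6.83) on 24 fragments over 4.38. The intervals did not overlap.

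Group D factors lack an activation domain and work by recruiting partners. Sox13 (NCBI gene 20668, chromosome 1, 133382300 to 133424459) held 7 peaks in a narrow range, 5.71 to 8.66. Of their summits 6 lay in the last 8.44 kb of the gene, and 1 lay 1.10 kb after the start. The highest, at 8.66 (6.27 to 11.7), was 2169 bp wide. Sox5, with a span of 954 kb, held 4 peaks of 3.96 to 6.48 on 5 to 16 fragments, spread from 157 to 917 kb after the start. Of these, the highest also lay in the long non-coding RNA gene Gm52486. Sox6, with 570 kb, held 1 peak at 5.32 (2.43 to 10.7) on 6 fragments, 7.13 kb after the start. The intervals of the 3 highest peaks overlapped.

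**Figure D3:**
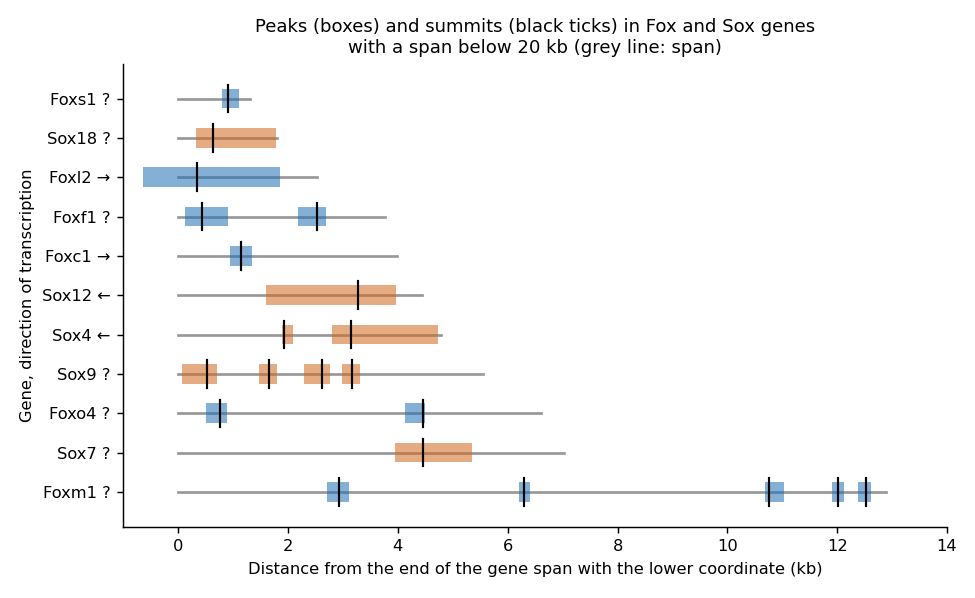
Peaks (boxes) and summits (black ticks) along the 11 Fox (blue) and Sox (orange) genes with a peak and a span below 20 kb, as distance in kb from the end of the span with the lower coordinate. Arrows give the direction of transcription and ? marks genes for which no direction was read; peaks cover 9.85% (Foxc1) to 80.6% (Sox18) of these genes, with a median of 31.6%.

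In 8 subfamilies 2 or more members held a peak, which allows close relatives to be set side by side. The highest peaks of the top and bottom member had intervals that did not overlap in 5 of them (Foxj, Foxk, Foxo, Foxp and Sox group F). In Foxn and in Sox groups C and D they overlapped. Part of this depended on the peaks taken: with wide peaks left out, Foxo3 (3.20) stood below Foxo4 (3.76) and neither Sox18 nor Sox7 held a peak, and by the median over a gene's peaks Foxp4 (6.55) stood below Foxp1 (6.82). The top member also held more peaks than the bottom one in 6 of the 8, the exceptions being Sox group C and Sox group F. A gene with more peaks has more chances of a high one, and the part of peak number in these differences was not tested. The top and bottom members were picked by value, and the like count in other gene families was not computed. The differences are therefore not read as particular to Fox and Sox genes.

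Depth limited what could be seen at each site. The 95 peaks rested on 5 to 84 fragments (median 20) over backgrounds of 0.317 to 13.1 (median 2.04), and their widths ran from 200 to 2500 bp (median 320 bp). In the list as a whole, the smallest fold enrichment was 3.34 among peaks with a background below 0.5 and 1.67 among those between 8 and 32. Of the member peaks, 5 lay in the first class and 4 in the second. With peaks of a −log10 q of at least 10 alone, 16 of the 23 members and 5 of the 8 Sox genes kept a peak. Foxj3, Foxn2, Foxo4, Foxs1, Sox5, Sox6 and Sox7 did not. The share of all genes kept under this limit is not given, so the loss is not read as particular to members. Background differed between genes, but its source is not known, so a low value is not read as less RNA of a gene. The lowest, 0.317, was a floor shared by 619 peaks of the list, 3 of them in members. In whole tissue, fewer cells of a type and less RNA per cell could not be told apart either.

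**Figure D4:**
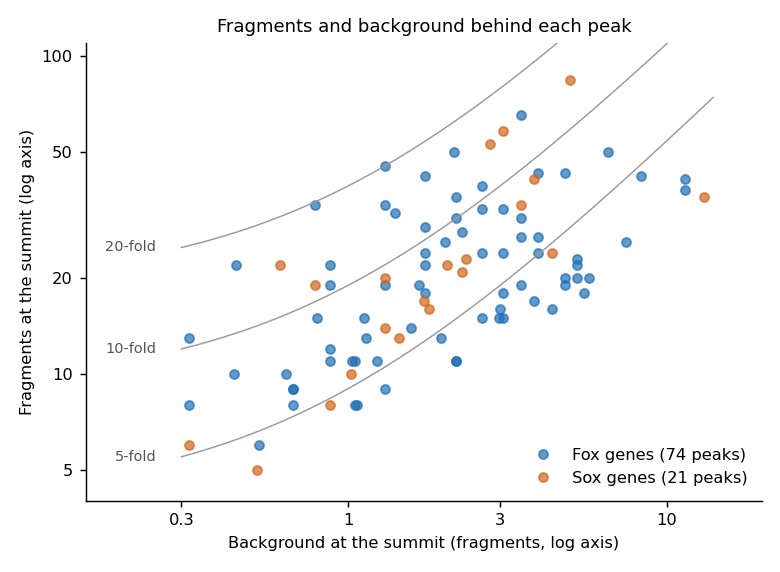
Fragments at the summit against the background at the summit (both on log axes) for the 74 peaks of Fox genes (blue) and 21 peaks of Sox genes (orange), with lines of 5-, 10- and 20-fold enrichment. Fragments run from 5 to 84, and no point lies on or above the 20-fold line, the highest being Foxk1 at 19.9.

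Within long genes, summits of members were placed in shares close to those of other genes. For the 10 members with a peak, a span of at least 20 kb and a strand in the promoter table, 8 of 59 summits (13.6%) lay in the first 10% of the span, 35 (59.3%) between and 16 (27.1%) in the last 10%. Among all 3073 such genes the shares were 11.8%, 59.6% and 28.6%. Over the 23 members with a peak, the number of peaks and the span had a Spearman correlation of 0.49, and the width and fold enrichment of the highest peak one of 0.39. These are descriptions across genes of 1 library pair that share depth and caller. A comparison of base composition at the starts of members with and without a peak was void, since the promoter table held only 60.9% and 67.6% of them, under the 80% needed.

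The 37 members without a peak were also untouched at their edges: 0 of them overlapped any peak. They included Foxa1, Foxa3, Foxb1, Foxb2, Foxc2, Foxd1, Foxd2, Foxd3, Foxd4, Foxe1, Foxe3, Foxf2, Foxh1, Foxi1, Foxi2, Foxi3, Foxj1, Foxl1, Foxn1, Foxn4, Foxo6, Foxp2, Foxp3, Foxq1, Foxr1 and Foxr2, with Sox1, Sox2, Sox3, Sox8, Sox10, Sox11, Sox14, Sox15, Sox21 and Sox30. The nearest peak was a median of 164 kb away. It lay within 5 kb in 4 cases, at 122 bp for Foxh1 (in Kifc2), 1066 bp for Sox15 (in Mpdu1), and at the distances given above for Foxj1 and Foxp3. Many of these genes are known from other tissues, such as Sox1, Sox2 and Sox3 from neural progenitors, Foxe1 from the thyroid, Foxe3 from the lens and Sox30 from male germ cells. Expression was not measured here, and the part of tissue in the lack of peaks was not tested. Most of the 37 genes were also short, with a median span of 3.80 kb, but the spans ran from 1.51 to 541 kb (Foxp2). At this depth no enrichment was detectable in them, which does not show that there was none.

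Markers of cell types were read in the same list, by presence of a peak alone, which 30.7% of all protein-coding genes showed. All 5 stromal markers, all 5 smooth muscle markers and 5 of 6 epithelial markers held a peak, as did 3 of 4 markers of endothelium and 3 of 4 of immune cells. Among markers of ciliated cells of the oviduct 0 of 4 held one, beside Foxj1 with none, and among embryonic markers 0 of 4, beside Sox2 with none. Of 4 markers of peripheral glia only Erbb3 held a peak, beside Sox10 with none. Lists of 4 genes are too small for a count of 0 or 1 to be read against that share. The part of cell composition in which members held peaks was not tested.

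Among 31 partner genes of Fox and Sox factors, 25 (80.6%) held a peak, against 30.7% of all protein-coding genes. Their median fold enrichment at the highest peak was 6.88, against 6.61 over all genes with a peak. All 5 Groucho corepressors held one, led by Tle2 at 16.5 (11.3 to 23.4) and Tle3 at 14.3 (10.5 to 19.0). So did beta-catenin (Ctnnb1, 4.77) and the 4 HMG-box factors of Wnt signalling, with Tcf7l1 at 22.4 (16.2 to 30.2) above Lef1 at 11.5 (8.70 to 15). Of the 8 genes for kinases or kinase subunits upstream of FoxO proteins, 6 held a peak, and Pik3cb and Sgk1 held none. The 6 ran from Pik3ca at 3.20 (1.99 to 4.91) to Pdpk1 at 7.64 (4.69 to 11.8). The 14-3-3 genes, whose products bind phosphorylated FoxO, held peaks in 6 of 7 cases with a median of 5.43, and coactivators and deacetylases in 3 of 6, with Crebbp at 10.4 (8.12 to 13.0). Partners were not matched to members in span or abundance. The list was chosen with earlier results of these data known, so its share is a description alone.

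The Klf, Hox and Zfp families of transcription factor genes were set beside the members, without a test. A peak was held by 12 of 17 Klf genes (70.6%), 22 of 39 Hox genes (56.4%) and 102 of 367 Zfp genes (27.8%), against 38.3% of Fox and Sox genes. The median fold enrichment at the highest peak was 9.08, 5.65 and 6.91, against 8.66. Genes with 5 or more peaks made up 8 of the 23 members with a peak (34.8%), 0 of 12 Klf, 2 of 22 Hox and 16 of 102 Zfp genes. The 8 members were 7 of 15 Fox genes with a peak (46.7%) and 1 of 8 Sox genes with a peak (12.5%). Among all genes with a peak the share was 18.7%. The median span of genes with a peak was 25.2 kb for members, 20.8 kb for Klf, 5.24 kb for Hox and 20.5 kb for Zfp. The families were not matched in span.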

How the data were processed

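The series held 1 peak list for an ac4C immunoprecipitation and an input library, grouped by their titles in the labels. HISAT2 2.2.1, MACS3 3.0.0a7 and the build mm10 (GRCm38) are named in the submitters' processing notes, and parameters were not given in the sources used here. The authors' list, in narrowPeak layout, gives positions, a deposited score, the fold enrichment (a ratio), −log10 p-values and −log10 q-values. The deposited score equalled 10 times −log10 q without decimals in 21191 of 21192 peaks. The largest q-value deposited was 0.0499. Strand was given for 0 peaks.

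Gene spans came from the RefSeq table of GRCm38.p6. A peak belonged to every protein-coding gene whose span held its summit. Fragments and background at each summit were recovered as the whole number for which the fold enrichment, with a pseudocount of 1, and the Poisson p-value both matched. A number was found for 21192 peaks, and a second one for 0. On simulated data the step returned the right number for 2000 of 2000 peaks. After p-values were swapped among them, a number still matched for 2. The simulation used the same formulas as the recovery, so it checks the computation alone. Its backgrounds also did not reach the highest of the list, 114. Read totals were not used.

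Genes described in full were the 10 members with the greatest fold enrichment, the 5 with most peaks, the highest of each subfamily and 14 fixed names. The members and lists were chosen with earlier results of these data known. Other genes were counted or given in passing. Tex52, Ccdc22, Rnf157, Kifc2, Mpdu1, Foxl2os and the genes beginning with Gm were named after their values were seen. Among members without a peak, 1 is not reported by name here, and 1 gene was left out of the partner list. Protein features planned at the start were not computed. Python 3.11.15, pandas 2.3.3, SciPy 1.17.1 and matplotlib 3.10.9 were used. Alternatives were a −log10 q of at least 10, a fold or width limit, and other rules for giving peaks to genes.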

Additional observations from a re-analysis of the deposited data

How the results depend on the processing

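The 23 members with a peak numbered 16 to 23 under the alternatives, and the 15 Fox genes 11 to 15. A −log10 q of at least 10 left 5 of 8 Sox genes, 45 of 95 peaks and a median fold enrichment of 14.2 in place of 8.66, by removal of weak peaks. It removed the peaks of Foxj3, Foxn2, Foxo4, Foxs1, Sox5, Sox6 and Sox7. A fold enrichment at or above the list median left 60 peaks and a median of 12.4, again by construction. A limit of 631 bp on width left 19 of the 23 members, 5 of them Sox genes. The only peaks of Foxl2, Sox12, Sox18 and Sox7 are wider. Among all 6717 protein-coding genes with a peak, 6320 kept one under the width limit. The like counts under the q and fold limits are not given. The 2 rules on summits in several genes and the rule of any overlap gave 22 or 23 genes, 90 to 95 peaks and medians of 8.51 or 8.66. The width limit brought the median of the members to 6.83 and that of all protein-coding genes with a peak from 6.61 to 6.25. Taking the median peak of each gene gave 6.83 and 5.48. Of the 17 genes described in full that held a peak, the width limit moved Sox4 to 2.62, Foxo3 to 3.20 and Foxj2 to 11.6, outside their intervals. The median over a gene's peaks moved Foxj2 to 8.96, Foxk1 to 7.01, Foxn3 to 4.35, Foxp4 to 6.55 and Sox4 to 8.40. No paired analysis was possible because there was 1 library of each kind. Depth, 5 to 84 fragments a summit, limits each value to its counting interval.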
